A study of Mus musculus with 20 samples.

Results

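Cytochrome P450 enzymes were described across 5 regions of the mouse heart. Every gene whose symbol on the platform is Cyp followed by a digit was taken, which gave 75 genes of 16593 and 101 probes of 25697. Where a gene had several probes (18 of the 75), the one that was brightest on average was taken. The regions were the left atrium (LA), the right atrium (RA), the left ventricle (LV), the right ventricle (RV) and the sinoatrial node (SA), the patch of tissue beside the RA in which the heartbeat starts. All samples came from untreated male C57/BL6 mice of 5 to 10 weeks, killed under pentobarbital with heparin. There were 20 arrays, 4 per region. Several mice were pooled for each SA sample and each LV mass was cut into pieces, and nothing in the labels says that the arrays of a region are separate animals. The errors and tests therefore cover the spread of these samples, which may be partly technical.

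A P450 is a membrane protein with a heme at its centre that inserts 1 atom of oxygen into its substrate, with electrons passed on by a reductase. Families CYP1, CYP2 and CYP3 mainly oxidise drugs and other foreign compounds and are best known from the liver. CYP4 enzymes hydroxylate the ends of fatty acids, CYP2C and CYP2J enzymes turn arachidonic acid into epoxides that act on vessels and heart muscle, and the mitochondrial and sterol families make bile acids, steroid hormones and active vitamin D.

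The deposited values are z-scores: on each array, 0 is the mean of all probes and 1 is their SD. Such a value has no true zero, so differences are in z-score units, without folds. Probes differ in brightness, so levels are compared between arrays and not between genes. LV replicate 4 was left out, since its Spearman correlation with the other arrays lay between -0.06 and 0.011 across genes. The mean correlation of LV replicate 3 with the remaining arrays was 0.863, against 0.934 to 0.946 for the other 18. The title of RV replicate 2 names the right atrium, whereas its source label and description name the right ventricle, which was used. Myl2, the ventricular myosin light chain, stood at 4.34 in that array, at 4.34 to 4.6 in the other RV arrays and at no more than 2.2 in RA. The mean of 5 atrial cardiomyocyte markers was 1.948 in that array and 0.542 to 1.5 in the other RV arrays. It was 0.666 to 2.298 in LV and 3.976 to 4.404 in RA. Whether that array holds some atrial RNA was not tested. Isl1, a homeobox factor of the node, was between 0.83 and 1.38 in the SA arrays and at most -0.33 elsewhere.

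Of the 75 P450 genes, 56 were never above 0 in the 19 arrays, as were 8975 of all 16593 genes. Of the P450 genes, 19 were above 0 in at least 1 and 4 were above 0 in all of them. Those 4 were Cyp2d22, a CYP2D enzyme, Cyp27a1, the mitochondrial sterol 27-hydroxylase, Cyp4f13, a fatty acid hydroxylase, and Cyp4b1, a hydroxylase best known from lung. By role, 7 of 19 CYP2 xenobiotic enzymes and 6 of 13 CYP4 fatty acid hydroxylases rose above 0 in some array. So did 3 of 7 sterol and bile acid enzymes, 1 of 3 CYP1 enzymes and 1 of 16 genes of the CYP2C, CYP2J and CYP2U group. None of the 6 CYP3A genes did, nor any of the 5 steroid hormone enzymes, the 3 vitamin D enzymes or the 2 retinoic acid hydroxylases. Beside these, Cyp20a1, an enzyme with no settled substrate, was between -0.29 and 0.28. A value below 0 says only that a probe was dimmer than the mean probe of its array.

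By the rule for named genes, 1 gene of each of these groups is given. Cyp11b2, the aldosterone synthase, lay between -0.49 and -0.27 over the 19 arrays. Cyp24a1, which inactivates vitamin D, lay between -0.75 and -0.39, and Cyp26b1, which clears retinoic acid, between -0.71 and -0.5. Cyp3a13, of the CYP3A group, lay between -0.96 and -0.02. None of these ranges reached 0. Marker genes of hepatocytes (8 of 8 measured) and of the adrenal cortex (5 of 5 measured), tissues rich in P450 enzymes, were likewise below 0 in all 19 arrays.

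**Figure D1:**
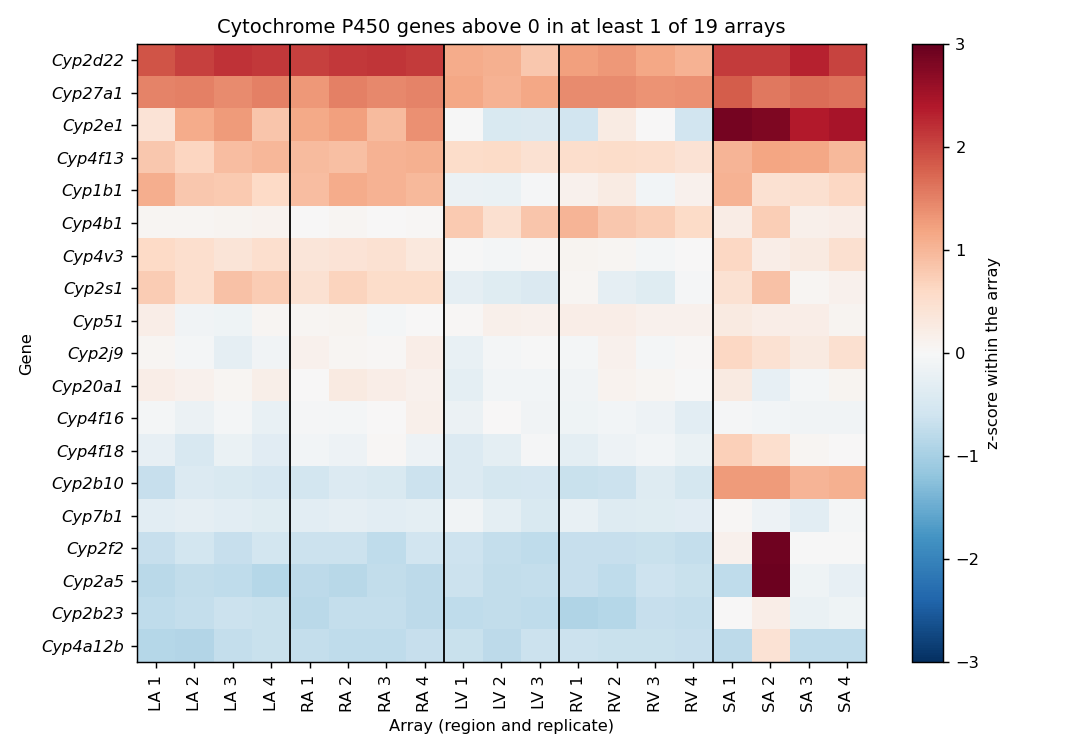
Heat map of the z-scores (colour, centred on 0) of the 19 cytochrome P450 genes that were above 0 in at least 1 of 19 arrays, with arrays in columns by region and genes in rows. Cyp2e1 and Cyp2b10 are high in the 4 SA arrays, and Cyp2f2 and Cyp2a5 are near 3 in SA replicate 2.

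Differences were tested with limma over all 16593 genes with Benjamini-Hochberg adjustment, at an adjusted p of 0.05. Over the 5 regions, 23 of the 75 P450 genes (30.7%) differed, against 38.9% of all genes. Between SA and RA, 7 of the 75 were higher in SA and 0 lower, against 5.09% of all genes higher and 4.62% lower (9.71% in either direction). Between SA and LA, 8 were higher and 0 lower, against 5.94% and 4.66% of all genes (10.6% in either direction). The 7 higher in SA than in RA were Cyp2b10, Cyp2e1, Cyp2f2, Cyp2b23, Cyp4f18, Cyp2j9 and Cyp27a1, and against LA the same 7 and Cyp4f13 were higher. The median difference over the 75 genes was 0.010 against RA and 0.013 against LA, where that over all genes was 0.003 and 0.002. At an unadjusted p under 0.05, 2 genes were lower in SA than in RA and 3 lower than in LA, and limma was the only tool run. These 2 comparisons share the SA arrays.

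Cyp2e1, which oxidises ethanol, acetone and fatty acids, was highest in SA, intermediate in the atria and lowest in the ventricles. Its z-scores in SA were 2.87, 2.80, 2.38 and 2.48. In RA they were 1.13, 1.22, 0.96 and 1.36, and in LA 0.40, 1.11, 1.27 and 0.84. In LV they were -0.01, -0.45 and -0.44 and in RV -0.58, 0.24, 0.01 and -0.57. No SA value overlapped any atrial value, and no atrial value overlapped any ventricular one, whereas RA and LA overlapped and so did LV and RV. SA exceeded RA by 1.47 ± 0.19 (SE, limma adjusted p = 4.06e-05), LA by 1.73 ± 0.19 (adjusted p = 6.54e-06) and the mean of both ventricles by 2.90 ± 0.17 (adjusted p = 3.32e-10). The atria exceeded the ventricles by 1.30 ± 0.14 (limma adjusted p = 7.36e-07). These 4 differences passed without any single array, and with all 20 arrays included.

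The promoter of Cyp2e1 is shown because this gene followed the order SA, atria, ventricles. It is the stretch of 250 bases before the RefSeq start site at chr7:140763569-140763818 (GRCm38.p6, plus strand), with a TATA box match in capitals that begins at position -31 counted from the start site.
Cyp2e1: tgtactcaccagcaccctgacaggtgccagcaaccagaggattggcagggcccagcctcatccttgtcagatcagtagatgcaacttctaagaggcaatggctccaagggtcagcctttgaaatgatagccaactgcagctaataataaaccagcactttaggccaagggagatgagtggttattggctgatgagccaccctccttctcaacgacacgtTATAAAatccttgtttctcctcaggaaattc
The letters TATAAA were in 12.4% of 32851 mouse promoter windows of this length, on either strand, and in 34.9% of the 63 windows of 56 P450 genes. CCAAT, also found in the Cyp2e1 window at positions -210 and -68 on the other strand, was in 33.8% of all windows and 41.3% of the P450 windows. A match is a description of the letters and does not show a bound factor.

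Cyp2b10, the mouse enzyme induced by phenobarbital through the receptor CAR, was high only in SA by its chosen probe. It read 1.28, 1.27, 1.03 and 1.06 in SA, and between -0.69 and -0.38 in the 15 other arrays. The SA values lay apart from those of every other region, while the other regions overlapped each other. SA exceeded RA by 1.67 ± 0.08 (SE, limma adjusted p = 5.81e-11), LA by 1.68 ± 0.08 (adjusted p = 4.73e-11) and the ventricles by 1.68 ± 0.07 (adjusted p = 1.18e-12). Atria and ventricles differed by 0.003 ± 0.056 (limma adjusted p = 0.971). The other Cyp2b10 probe did not share the pattern. Its mean was -0.555 in SA, -0.562 in LA and -0.572 in RA, so the 2 probes disagree and the difference rests on 1 of them.

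Cyp2b23, another CYP2B gene of chromosome 7 measured by 1 probe, was likewise highest in SA. It read 0.00, 0.20, -0.20 and -0.13 in SA and between -0.90 and -0.64 in the 15 other arrays, with no overlap. SA was higher by 0.728 ± 0.067 than RA (SE, limma adjusted p = 5.22e-07), by 0.660 ± 0.067 than LA (adjusted p = 1.88e-06) and by 0.745 ± 0.060 than the ventricles (adjusted p = 1.71e-08). CYP2B genes resemble each other in sequence, and whether either probe also binds transcripts of another member was not tested.

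The promoters of Cyp2b10 and Cyp2b23 are shown because these 2 genes shared the SA pattern. They are the 250 bases before the RefSeq start site, at chr7:25897408-25897657 (plus strand) for Cyp2b10 and chr7:26686431-26686680 (minus strand) for Cyp2b23, in GRCm38.p6. Capitals mark the longest run of letters that the 2 windows share, 34 bases that begin at -72 in Cyp2b10 and at -99 in Cyp2b23.
Cyp2b10: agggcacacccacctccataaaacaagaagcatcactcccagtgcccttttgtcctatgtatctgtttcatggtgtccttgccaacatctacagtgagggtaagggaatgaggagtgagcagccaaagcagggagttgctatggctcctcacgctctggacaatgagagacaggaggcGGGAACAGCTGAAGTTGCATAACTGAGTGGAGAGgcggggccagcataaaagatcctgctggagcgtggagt
Cyp2b23: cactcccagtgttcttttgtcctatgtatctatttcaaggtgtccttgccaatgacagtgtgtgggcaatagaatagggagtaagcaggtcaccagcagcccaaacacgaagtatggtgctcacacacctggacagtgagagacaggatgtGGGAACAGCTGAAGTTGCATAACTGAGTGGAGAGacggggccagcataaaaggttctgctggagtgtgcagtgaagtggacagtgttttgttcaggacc
Aligned, the 2 windows had 183 of 250 bases in common (73.2%), against 57.6% for Cyp2b10 and Cyp2e1. GCGTG, the core letters of the aryl hydrocarbon receptor element, occurred in the Cyp2b10 window at -101 and at -9. It was in 28.2% of all windows and 20.6% of the P450 windows. AGGTCA, a nuclear receptor site of 6 letters, occurred in the Cyp2b23 window at -164, and in 14% of all windows and 22.2% of the P450 windows. In the RefSeq order of genes on chromosome 7, both belong to a run of 17 Cyp2 genes and pseudogenes, from Cyp2s1 to Cyp2t4, of which 10 were measured. Cyp2f2 and Cyp2a5 belong to it as well, and Cyp2e1 lies elsewhere on that chromosome. Other measured genes of the run, Cyp2b9, Cyp2b13, Cyp2b19, Cyp2g1 and Cyp2a12, were below 0 in all 19 arrays. None of them was called between SA and RA or LA. The means of Cyp2b9, Cyp2b13 and Cyp2b19 were -0.715, -0.8 and -0.845 in SA, and -0.735, -0.782 and -0.855 in RA.

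Cyp2f2, which activates naphthalene in the club cells of the mouse airway, was higher in SA but very unevenly so. It read 0.13, 2.91, -0.02 and -0.02 in SA and between -0.76 and -0.54 in the 15 other arrays. All 4 SA values lay above those of the other regions, and replicate 2 stood far above the rest. SA exceeded RA by 1.41 ± 0.42 (SE, limma adjusted p = 0.0403), LA by 1.37 ± 0.42 (adjusted p = 0.0445) and the ventricles by 1.44 ± 0.37 (adjusted p = 0.00587). Without SA replicate 2, the difference from RA was 0.685 ± 0.054 (limma adjusted p = 2.07e-07), so it fell by over 1.5 times while the p became smaller. The call against RA was lost when any 1 RA array or any 1 RV array was left out (limma adjusted p from 0.0505 to 0.0854), and that against LA was lost in 14 of the 19 fits with 1 array left out.

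Cyp2a5, the mouse coumarin hydroxylase of liver, lung and nose, and Cyp4a12b, a fatty acid hydroxylase, were outside the rule for named genes and are given because they also stood out in SA replicate 2. Cyp2a5 read -0.77, 2.94, -0.13 and -0.24 in SA and at most -0.63 in the 15 other arrays. Its 3 other probes followed the chosen one with Pearson's r from 0.951 to 0.984 over the 19 arrays. Cyp4a12b read 0.44 in SA replicate 2 and was below 0 in every other array of the fit. Neither difference between SA and RA passed the test (limma adjusted p = 0.141 for Cyp2a5 and 0.495 for Cyp4a12b). Some markers of lung and airway also stood out in SA replicate 2. Scgb1a1, the club cell secretory protein, read -0.49, 3.97, 0.93 and 0.72 in SA and at most -0.49 in the 15 other arrays. The mean over the 10 measured genes of the lung and airway list was 0.646 in SA replicate 2, between -0.658 and -0.365 in the other SA arrays and between -0.728 and -0.525 elsewhere. In SA replicate 1, where Cyp2f2 read 0.13, the list mean was -0.658, within the range of the 15 other arrays. Of the 10, 1 was higher in SA than in RA and 6 were below 0 in every array, among them the surfactant genes Sftpa1, Sftpb and Sftpc. The part of airway RNA in the values of Cyp2f2 and Cyp2a5 was not tested.

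**Figure D2:**
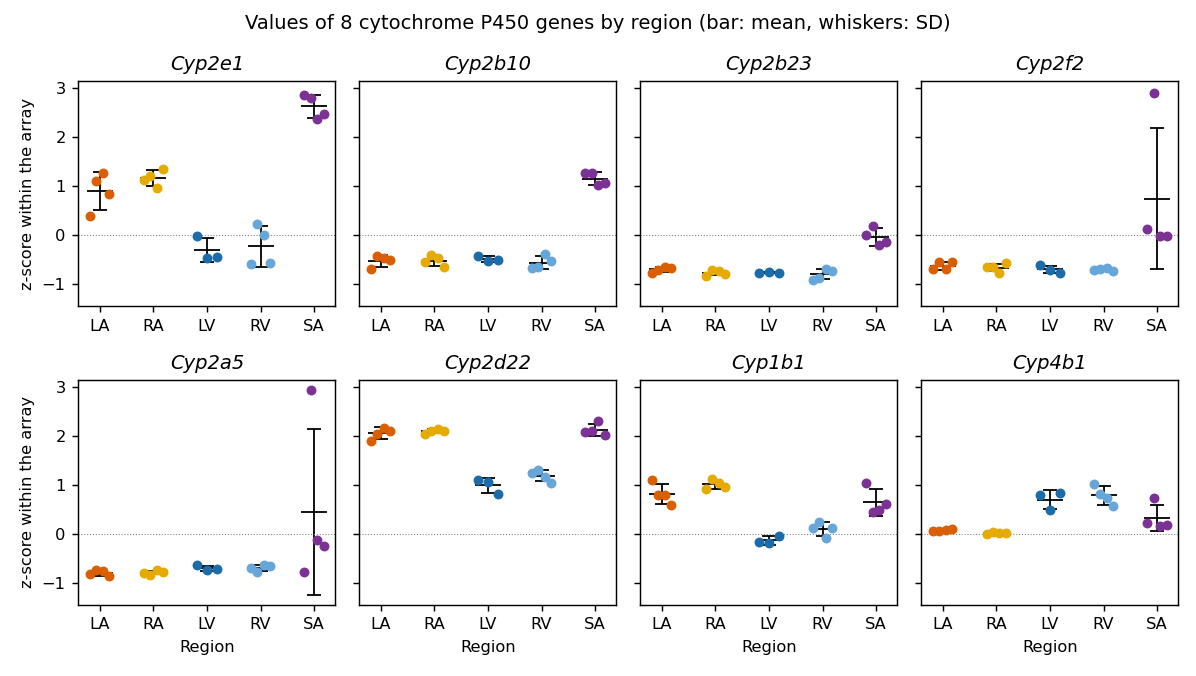
z-scores of 8 cytochrome P450 genes, 1 point per array, by region, with the mean as a bar and the SD as whiskers (n = 4 arrays, 3 for LV). Cyp2e1 steps down from SA to atria to ventricles, Cyp2f2 and Cyp2a5 in SA are spread by 1 array (2.91 and 2.94), and Cyp4b1 is higher in the ventricles.

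Markers of white adipocytes were also higher in SA. Of the 9 measured, 7 were higher in SA than in RA, in LA and in the ventricles. Adipoq, the adipocyte hormone adiponectin, read 2.31, 2.29, 1.79 and 2.20 in SA and at most 0.39 in any other array of the fit. The mean of the list was between 0.693 and 1.039 in the SA arrays and between -0.557 and -0.101 elsewhere. The other 2 genes of the list, Retn and Fabp4, were below 0 in all 19 arrays. Smooth muscle markers were higher in SA as well, 5 of 7 against RA, LA and the ventricles each, and the mean of that list was between 0.944 and 1.306 in SA and between 0.247 and 0.819 elsewhere. Of 6 measured neuron markers, 2 were higher in SA than in RA, 5 than in LA and 4 than in the ventricles, with list means of -0.293 to 0.267 in SA and -0.683 to -0.142 elsewhere. Of 4 measured node markers, 3 were higher in SA than in RA, and all 4 than in LA and in the ventricles. Of 6 brown adipocyte markers, 2 were higher and 1 lower in SA than in RA, and likewise against LA. Against the ventricles, 1 of those 6 was higher and 1 lower. Adipose tissue was trimmed off during dissection, per the labels. In bulk RNA, more cells of a type and more RNA per cell cannot be told apart. The part of adipocytes, smooth muscle, neurons or node cells in the values of Cyp2e1, Cyp2b10 and Cyp2b23 was not tested. With the SA arrays set aside, Cyp2e1 had Pearson's r of 0.849 with the white adipocyte list over the other 15 arrays. Cyp2d22 and Cyp1b1, also higher in the atria than in the ventricles, had 0.784 and 0.641, and Cyp4b1, lower in the atria, had -0.68. Cyp2b10 had 0.074 and varied only from -0.69 to -0.38 there. Cyp2b23 had 0.35, Cyp2f2 0.641 and Cyp2a5 -0.568, and these genes were also below 0 in all 15 arrays. These arrays also differ by region, so the coefficients are a description and do not link a gene to adipocytes.

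The genes whose values were most like those of Cyp2e1 over the 19 arrays were Scd1 (Pearson's r = 0.963), the enzyme that desaturates stearate, Car3 (0.959), a carbonic anhydrase, Adam33 (0.957), Dusp26 (0.953) and Vsnl1 (0.950), a neuronal calcium sensor. The first pair are members of the white adipocyte list. For Cyp2b10 the 5 most alike were Mup2 (0.985), a major urinary protein, Orm1 (0.985), an acute phase protein, Ces1f (0.983), a carboxylesterase, Slc7a10 (0.982), a transporter of neutral amino acids, and Clstn3 (0.981). For Cyp2b10 the arrays form 2 clusters, SA and the rest, so these coefficients describe likeness of that split only.

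**Figure D3:**
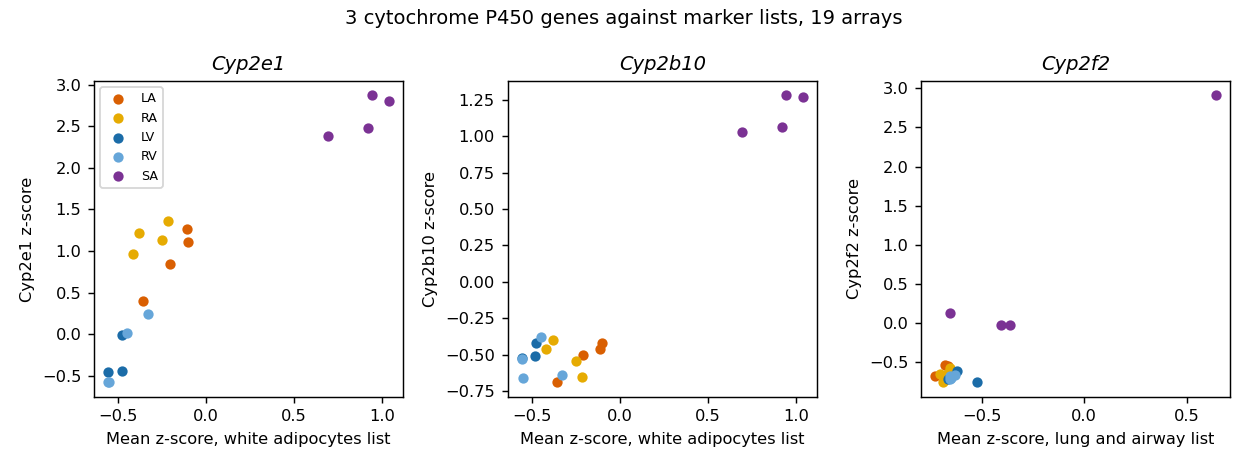
z-scores of Cyp2e1, Cyp2b10 and Cyp2f2 (vertical) against the mean z-score of a marker list (horizontal), 1 point per array, coloured by region. SA arrays lie at 0.693 to 1.039 on the white adipocyte axis, and SA replicate 2 alone lies above 0 on the lung and airway axis.

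Smaller differences of SA from the atria were found for a CYP4 gene and a CYP2J gene. Cyp2j9, an arachidonic acid hydroxylase of the mouse, read 0.63, 0.46, 0.26 and 0.48 in SA, 0.14, 0.06, 0.04 and 0.21 in RA and -0.27 to 0.06 in LA. SA did not overlap either atrium. The difference was 0.345 ± 0.077 from RA (SE, limma adjusted p = 0.00592) and 0.552 ± 0.077 from LA (adjusted p = 7.58e-05). Cyp4f18, which inactivates leukotriene B4 in mouse neutrophils, read 0.71, 0.51, 0.05 and 0.02 in SA and -0.15 to 0.03 in RA, so 1 SA value lay within the RA range. Its difference from RA was 0.412 ± 0.122 (limma adjusted p = 0.0376) and was lost without RA replicates 1, 2 or 4 or SA replicates 1 or 2 (adjusted p from 0.0761 to 0.13). From LA it differed by 0.640 ± 0.122 (limma adjusted p = 0.00161), with no overlap. Of its 2 other probes, 1 followed the chosen probe with r = 0.876 and the other with r = 0.483.

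Cyp27a1 was 1.82, 1.58, 1.68 and 1.64 in SA, 1.30 to 1.51 in RA and 1.41 to 1.5 in LA. SA lay above both atria without overlap, by 0.245 ± 0.052 (SE, limma adjusted p = 0.00391) and 0.207 ± 0.052 (adjusted p = 0.0132). Cyp4f13 was 0.97 to 1.18 in SA and 0.64 to 1 in LA, and differed by 0.235 ± 0.068 (limma adjusted p = 0.0309), with overlap. After scaling each array by its median and median absolute deviation neither SA difference passed (limma adjusted p = 0.743 and 0.811 for Cyp27a1, 0.576 for Cyp4f13).

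Between SA and the ventricles, 13 P450 genes were higher in SA and 7 lower, against 17% and 16.2% of all genes (33.1% in either direction). Beside those above, Cyp2d22, Cyp1b1, Cyp2s1, Cyp4v3 and Cyp7b1 were higher, and Cyp4b1 was lower. Cyp7b1, the oxysterol 7-hydroxylase, read 0.04, -0.16, -0.31 and -0.05 in SA and -0.45 to -0.11 in the ventricles, which overlap. Its difference of 0.191 ± 0.061 (SE, limma adjusted p = 0.0222) did not pass without LV replicate 3, SA replicate 1 or SA replicate 4. The 6 others lower in SA were Cyp2c38, Cyp11b2, Cyp3a25, Cyp21a1, Cyp4a14 and Cyp2d12, which were below 0 in all 19 arrays and differed by -0.123 to -0.08. With 1 array left out, the call of Cyp4a14 was lost in 16 of 19 fits, that of Cyp21a1 in 14 and that of Cyp2c38 in 4. Among all 8975 genes that were never above 0, the median difference was -0.047, and among the 56 such P450 genes -0.053. After quantile normalization the median of those 56 was -0.010 and 1 of them was called lower or higher. Cyp27a1 was higher in SA by 0.426 ± 0.046 (SE, limma adjusted p = 8.75e-07), but after scaling by the median and median absolute deviation by 0.028 (adjusted p = 0.879).

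Between atria and ventricles, 11 P450 genes were higher in the atria and 14 lower, against 18.4% and 24% of all genes (42.4% in either direction). The 11 were Cyp2e1, Cyp2d22, Cyp1b1, Cyp2s1, Cyp4v3, Cyp4f13, Cyp3a13, Cyp20a1, Cyp2d40, Cyp27a1 and Cyp39a1. Of the 14 lower, only Cyp4b1 and Cyp51 were above 0 in any array. The median difference was -0.041 over the 75 genes and -0.033 over all genes.

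Cyp2d22 had the smallest adjusted p of these. It read 1.89, 2.05, 2.17 and 2.11 in LA, 2.04, 2.11, 2.14 and 2.10 in RA, and 2.09, 2.10, 2.30 and 2.02 in SA. In LV it read 1.11, 1.06 and 0.82 and in RV 1.24, 1.30, 1.16 and 1.04. The 3 regions of the upper heart overlapped each other and lay wholly above both ventricles. The atria exceeded the ventricles by 0.985 ± 0.055 (SE, limma adjusted p = 7.52e-11), and SA exceeded RA by 0.030 ± 0.074 (adjusted p = 0.914).

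Cyp1b1, which oxidises oestradiol and polycyclic hydrocarbons outside the liver, read 1.10, 0.80, 0.79 and 0.60 in LA and 0.92, 1.12, 1.05 and 0.97 in RA. It read -0.17, -0.19 and -0.03 in LV and 0.12, 0.25, -0.09 and 0.13 in RV. SA read 1.05, 0.45, 0.49 and 0.62, above every ventricular value and overlapping LA and RA. The difference of atria from ventricles was 0.932 ± 0.085 (SE, limma adjusted p = 5.66e-08). Cyp2s1, an enzyme of epithelia, read 0.50 to 0.89 in LA and 0.45 to 0.66 in RA, against -0.44 to -0.28 in LV and -0.37 to 0.07 in RV, with no overlap and a difference of 0.894 ± 0.103 (limma adjusted p = 1.3e-06). In SA it was uneven, at 0.46, 0.89, 0.05 and 0.12, with replicate 2 again the highest. Markers of mesothelium (6 of 6 measured genes), fibroblasts (6 of 7) and macrophages (5 of 5) were also higher in the atria than in the ventricles, with median differences of 0.696, 0.522 and 0.415. The mean of the mesothelium list was between 0.415 and 1.113 in the atrial arrays and between -0.288 and 0.222 in the ventricular ones. The 5 measured markers of atrial cardiomyocytes were all higher in the atria (median difference 3.572), and the 5 of ventricular cardiomyocytes all lower (-1.235). The part of any of these cells in the P450 differences was not tested.

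Cyp4v3, the mouse counterpart of the human fatty acid hydroxylase CYP4V2, read 0.38 to 0.59 in LA and 0.31 to 0.46 in RA, against -0.07 to 0.03 in LV and -0.05 to 0.09 in RV. Atria and ventricles did not overlap and differed by 0.440 ± 0.053 (SE, limma adjusted p = 2e-06). Cyp4f13 read 0.64 to 1.07 in the atria and 0.43 to 0.57 in the ventricles, again without overlap, and differed by 0.399 ± 0.050 (limma adjusted p = 3.25e-06). Cyp27a1 differed by 0.200 ± 0.038 (limma adjusted p = 0.000382), with overlap, and by -0.100 after scaling by the median and median absolute deviation, so its direction depends on the scaling. Cyp20a1 read 0.01 to 0.27 in the atria and -0.29 to 0.11 in the ventricles, which overlap, and differed by 0.215 ± 0.063 (limma adjusted p = 0.011). Cyp3a13, Cyp2d40 and Cyp39a1, the 3 never above 0, differed by 0.186 to 0.315, each with overlap, and the other probes of Cyp3a13 and Cyp39a1 did not follow the chosen ones.

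Cyp4b1 ran the other way. It read 0.79, 0.49 and 0.83 in LV and 1.02, 0.82, 0.74 and 0.57 in RV. In LA it read 0.06, 0.06, 0.09 and 0.10 and in RA 0.01, 0.05, 0.02 and 0.03. No atrial value reached a ventricular one, and the atria were lower by 0.693 z-score units ± 0.079 (SE, limma adjusted p = 1.17e-06). In SA it read 0.22, 0.73, 0.16 and 0.19, so replicate 2 lay within the ventricular range, and SA was lower than the ventricles by 0.420 ± 0.096 (limma adjusted p = 0.00223). Without SA replicate 2, the difference from the ventricles was -0.555 ± 0.075. Cyp51, the lanosterol demethylase of cholesterol synthesis, read -0.12 to 0.20 in the atria and 0.04 to 0.20 in the ventricles, and its difference of -0.114 ± 0.044 (limma adjusted p = 0.0468) was lost in 13 of the 19 fits with 1 array left out.

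The other 12 genes lower in the atria were below 0 in all 19 arrays, and the largest such difference was that of Cyp4f14, a leukotriene hydroxylase, at -0.171 ± 0.032 (SE, limma adjusted p = 0.000295). The median difference of the 56 P450 genes never above 0 was -0.049, and that of the 8975 such genes on the array was -0.046. After quantile normalization the median of those 56 was -0.004, and 7 of them were called in either direction, against 15 before.

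**Figure D4:**
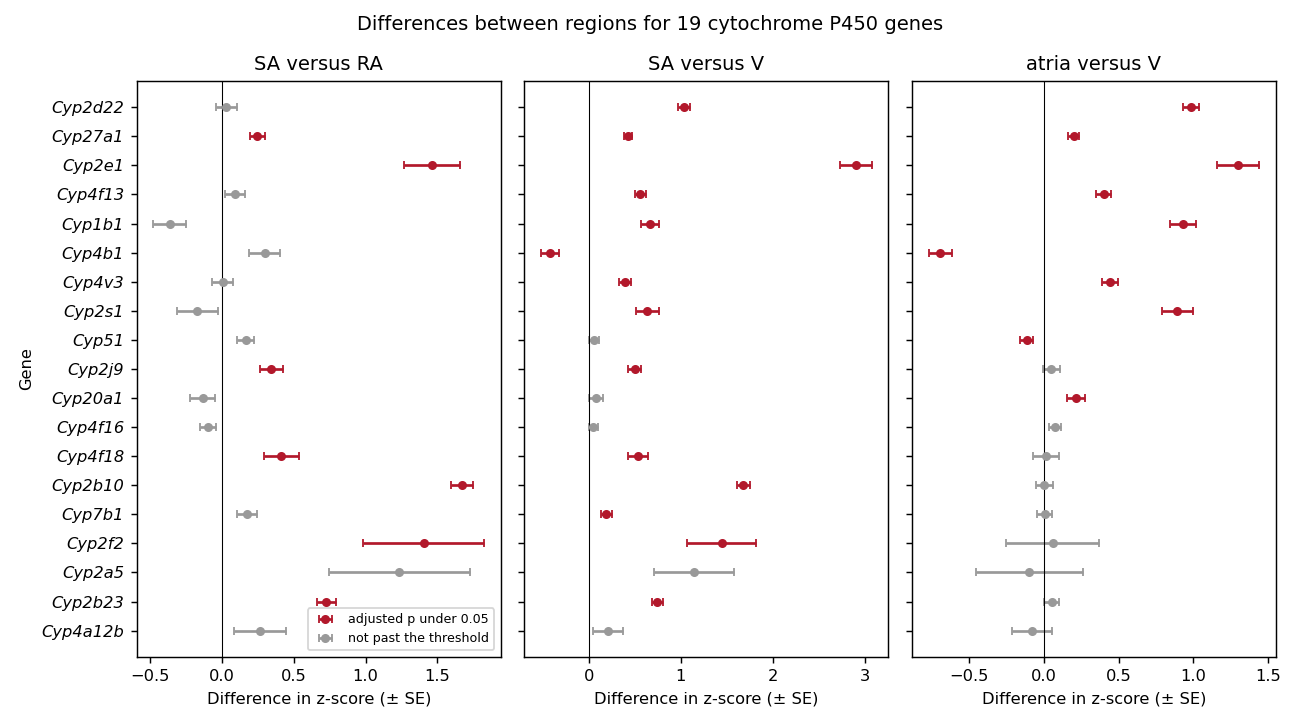
Differences between regions in z-score (horizontal, ± SE of the limma fit over 19 arrays) for the 19 cytochrome P450 genes above 0 in at least 1 array, in 3 comparisons, with red for an adjusted p under 0.05. Cyp2e1 is to the right in all 3, Cyp2b10 only in the 2 with SA, and Cyp4b1 lies left of 0 against the ventricles.

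Left and right sides differed little. Between LA and RA, 0 of the 75 P450 genes passed in either direction, against 2.38% of all genes, and at an unadjusted p under 0.05 in limma 1 was higher and 3 lower in LA. Cyp2e1 was lower in LA by 0.263 ± 0.194 (SE, limma adjusted p = 0.75). Between LV and RV, 1 passed, Cyp27a1, against 1.47% of all genes. It read 1.16, 1.04 and 1.17 in LV and 1.41, 1.41, 1.34 and 1.38 in RV, without overlap, and was lower in LV by 0.262 ± 0.056 (limma adjusted p = 0.0267). It was also the 1 P450 gene whose left-right difference was not the same in atria and ventricles, where 1.32% of all genes passed upward, 1.21% downward and 2.53% in either direction. LA minus RA exceeded LV minus RV by 0.299 ± 0.076 (limma adjusted p = 0.0438), a call that was lost in 13 of the 19 fits with 1 array left out (adjusted p from 0.0517 to 0.113). The LV to RV call was lost without LV replicates 1 or 2 or RV replicates 1, 2 or 4 (adjusted p from 0.0502 to 0.0994), and the probe of Cyp27a1 with the highest mean over all 20 arrays gave -0.025 ± 0.073. Neither call passed with the replicate number as a block.

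Genes that work with P450 enzymes were taken from lists of the pathway. Of 8 measured redox partners and heme supply genes, 4 were higher and 3 lower in the atria than in the ventricles. The rate-limiting enzyme of heme synthesis, Alas1, was lower by 0.520 ± 0.060 (SE, limma adjusted p = 1.24e-06), and the heme oxygenase Hmox1 was higher by 0.282 ± 0.070 (adjusted p = 0.00354). Between SA and RA, 1 of the 8 was higher, the cytochrome b5 gene Cyb5b, by 0.253 ± 0.059 (limma adjusted p = 0.00803). These partners moved in both directions.

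The next list held 14 measured genes, of receptors that sense foreign compounds, lipids and vitamins and of related transcription factors such as Arnt, Ahrr and Nfe2l2. Of these, 3 were higher and 5 lower in the atria than in the ventricles. Vdr, the vitamin D receptor, was higher in the atria than in the ventricles by 0.843 ± 0.044 (SE, limma adjusted p = 3.14e-11). It was the 1 gene of this list that passed between SA and RA, lower in SA by 0.765 ± 0.060 (limma adjusted p = 7.68e-08). Nr1h3, the oxysterol receptor LXR alpha, was higher in the atria by 0.456 ± 0.046 (limma adjusted p = 2.56e-07). Nr1i3, the gene of CAR, and Ahr, that of the aryl hydrocarbon receptor, were below 0 in all 19 arrays. Between SA and RA they differed by 0.037 ± 0.051 (limma adjusted p = 0.799) and -0.033 ± 0.045 (adjusted p = 0.803).

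Of 14 measured epoxide hydrolases and conjugating enzymes, which act on the products of P450 enzymes, 6 were higher and 2 lower in the atria than in the ventricles, and 2 were higher and 2 lower in SA than in RA. Ephx2, the soluble hydrolase of arachidonic acid epoxides, read 1.68 to 2.01 in the atria and 2.25 to 2.69 in the ventricles. The sides did not overlap, and the difference was -0.642 ± 0.040 (SE, limma adjusted p = 3.59e-10). Nqo1, a quinone reductase, differed by -0.863 ± 0.050 (limma adjusted p = 1.49e-10), whereas Gstt1, a glutathione transferase, was higher in the atria by 0.655 ± 0.052 (adjusted p = 1.04e-08). In SA, Ephx2 exceeded RA by 0.195 ± 0.055 (limma adjusted p = 0.0276).

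Of 12 measured genes of the cyclooxygenase and lipoxygenase routes, the other fates of arachidonic acid, 3 were higher and 6 lower in the atria than in the ventricles, and 2 were higher and 3 lower in SA than in RA. Ptgds, a prostaglandin D synthase, was lower in the atria by 1.15 ± 0.12 (SE, limma adjusted p = 3.41e-07), and Ptgis, the prostacyclin synthase and itself a P450 by fold though not by symbol, was higher by 0.743 ± 0.088 (adjusted p = 1.73e-06). Of 8 measured partners of steroid metabolism, 2 were higher and 4 lower in the atria. Stard3, a cholesterol carrier, was higher in the atria by 0.515 ± 0.058 (limma adjusted p = 9.62e-07), and Hsd11b1, which regenerates active glucocorticoid, was lower by 0.505 ± 0.082 (adjusted p = 6.7e-05).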

How the data were processed

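RNA of 5 heart regions was labelled with the Illumina TotalPrep kit, hybridised to Illumina MouseRef-8 v2 BeadChips and read with BeadStudio and GenomeStudio 2011.1, per the labels and the study's methods. The values the authors deposited are scores, a z-score per array with 2 decimals (mean 0 and SD 1 over 25697 probes), and how they were made from the signals is not given in the sources used here. For their own analysis the authors describe log2 signals with aligned medians, from 18 mouse arrays of which 2 were of LV. Which LV arrays those were is not stated, so the 19 arrays fitted here are a different set. Precision is limited by how many arrays there are.

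Probes were named through the platform annotation: 23978 carried 1 gene, of which 23962 matched RefSeq by identifier, and 1719 had none and were left out. Of several probes for a gene, the one with the highest mean outside LV replicate 4 was kept, which gave 16593 genes. Region means were fitted over 19 arrays with limma 3.58.1 (R 4.3.3, lmFit and eBayes), with no filter on low values, so that all 75 P450 genes were tested. Two-sided contrasts were SA against RA, LA and V (the mean of the LV and RV means), atria (the mean of the LA and RA means) against V, LA against RA, LV against RV, and the difference of the last pair, with a moderated F over the regions. Adjustment was by Benjamini-Hochberg over all genes within a comparison. Errors of differences are SEs, and the procedure was tested on simulated data.

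Genes were named by rule: Cyp2e1 and Cyp2b10, up to 6 called genes per contrast and direction by size, the 10 highest means, the highest of each role, left-right differences past the threshold, up to 3 called genes per list and contrast, and the 5 genes most correlated with Cyp2e1 and with Cyp2b10. SA values of Cyp27a1, Cyp4f13 and Cyp7b1, the remaining calls listed by name, Cyp2a5 and Cyp4a12b were named after their values were seen. The P450 genes and all lists were chosen with earlier results of these data known. Alternatives were all 20 arrays, leaving out LV replicates 3 and 4 together, leaving out each array, filters, scalings, the choice of probe, a variance trend and replicate blocks. Promoters are RefSeq sequences of GRCm38.p6, searched on both strands. Detection p-values were not used here. Same-numbered arrays of LA and RA (r of deviations -0.259 to 0.338) and of LV and RV (0.035 to 0.179) did not all deviate together. For LA replicates 2, 3 and 4, r was 0.168, 0.338 and 0.328, against at most -0.022, 0.114 and 0.246 with other RA arrays. For LA replicate 1, r was -0.259, against up to 0.228. For LV replicates 1, 2 and 3, r was 0.179, 0.179 and 0.035, against at most -0.026, -0.012 and 0.03 with other RV arrays. Some pairing is therefore possible, but no label states it, and the main fit was unpaired.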

Additional observations from a re-analysis of the deposited data

Results flagged for a closer look

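Within regions of 4 arrays, Dixon's test of the gap to the nearest array was run on 27 named P450 genes (108 tests), and chance alone flags about 1 in 20. It marked 8 values. SA replicate 2 was far above the other SA arrays for Cyp2f2 (2.91) and for Cyp4b1 (0.73). RV replicate 4 was the lowest RV array for Cyp4f13 (0.43). The other 5 marks were on genes below 0 in every array: the highest LA value of Cyp26b1 (-0.55) and of Cyp3a25 (-0.64), both in LA replicate 4, the highest RV value of Cyp2c29 (-0.68, replicate 4) and of Cyp3a25 (-0.71, replicate 3), and the lowest RA value of Cyp2d12 (-0.90, replicate 4).

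The left-right difference of Cyp27a1 was not the same in atria and ventricles, by 0.299 ± 0.076 (SE, limma adjusted p = 0.0438), and the call was lost in 13 of the 19 fits with 1 array left out (adjusted p up to 0.113). Its 3 probes did not show the same difference between LV and RV, with means of 1.123 against 1.385 for the chosen probe, 1.26 against 1.285 for the second and 0.78 against 0.805 for the third.

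LV replicate 4 stood apart for the P450 genes too: by the same test it would have been the outlying LV array for 32 of the 75 genes.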

How the results depend on the processing

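Over 29 settings, 190 of 233 alternative counts of P450 genes called stayed within 1.5 times the reported count, and 43 were lower. With all 20 arrays the counts were 12 over the 5 regions, 3 for SA against RA, 5 for SA against LA, 10 for SA against V, 10 for atria against V, 0 for LV against RV and 0 for the left-right difference. Testing only genes above 0 in some array gave 13 over the regions and 10 for atria against V. Testing only genes with a mean above 0, which left 11 P450 genes, gave 9 over the regions, 4 and 4 for SA against RA and LA, 9 for SA against V and 10 for atria against V. Median and MAD scaling gave 5 for SA against LA, 16 for atria against V, 0 for LV against RV and 0 for the left-right difference. Quantile normalization gave 16 for atria against V and 0 for the left-right difference, the probe with the highest mean over 20 arrays gave 0 for LV against RV and 0 for the left-right difference, and a variance trend gave 0 for the latter. The cause was not tested, beyond fewer genes being tested under the filters. Shares of all genes called under each setting are not given here, so lower counts are not set apart from changes over all genes.

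With the replicate number as a block, LV against RV gave 0 (Cyp27a1, limma adjusted p = 0.0657) and the left-right difference 0 (for Cyp27a1, left-right difference, atria compared with ventricles, limma adjusted p = 0.0839). Same-numbered arrays of LV and RV, and of LA and RA, also share a number in their titles, but no label says what they share. The block moved no other count by over 1.5 times. With the title numbers as a random block within atria and within ventricles, the fitted correlation was 0.048.

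Leaving out 1 array gave 20 to 24 over the regions, 5 to 9 for SA against RA, 6 to 10 for SA against LA, 16 to 21 for SA against V, 19 to 29 for atria against V, 0 to 0 for LA against RA, 0 to 1 for LV against RV and 0 to 1 for the left-right difference. Without RV replicate 2, whose title names another region, the counts were 21, 6, 7, 19, 22, 0, 0 and 0 in that order. Of single genes, 1388 of 1561 alternative values were counted as the same, 171 lost the call and 2 were counted as reversed. Those 2 were Cyp2b10 in atria against V with all 20 arrays (-0.149) and Cyp27a1 in atria against V with median and MAD scaling (-0.100). A change of sign by under 2 SEs, where neither fit passed, was counted as the same. Cyp2e1 in LV against RV was such a case, at -0.22 to 0.08 with 1 array left out.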
